A study of Macaca mulatta with 4 samples.

Results

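The genes described here encode the enzymes that break down glucose to pyruvate and lactate, pass pyruvate to the mitochondrion, and divert sugar phosphates into the pentose phosphate pathway. They were chosen by name, as 35 listed gene symbols, and each was taken as the row of the count table whose Ensembl macaque identifier carries that symbol. Of the 35, 32 matched one of the 21314 genes of the table. LDHB alone had 2 identifiers, and the one with more reads was used. For TPI1, ENO1 and PKM no identifier of the table could be matched, and these genes are not analysed here. A low-count filter left 30 of the 32, and PDK4 and FBP1 did not pass it.

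Glycolysis turns glucose into pyruvate in the cytosol. Hexokinase and phosphofructokinase commit the sugar to the pathway, and lactate dehydrogenase or the mitochondrial pyruvate dehydrogenase complex takes the pyruvate onward. Several steps are served by paralogous enzymes that differ in regulation or in the tissues where they are known best. In mammals, early cleavage embryos are known to rely on pyruvate, and glucose use rises as the blastocyst approaches.

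RNA came from rhesus macaque (Macaca mulatta) morulae, the compacting stage before the blastocyst, in 2 groups of 2 libraries each. In androgenetic embryos (AG) every nuclear chromosome comes from the father, and in gynogenetic embryos (GG) from the mother. No library of embryos with both parental genomes was analysed here. The labels record no treatment, embryo age in days or sex, and they leave unclear how many embryos each library holds and whether replicates came from different animals. The p-values therefore measure the spread between these libraries, which may be technical in part.

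The libraries held 14129608 to 29733977 estimated counts, the GG libraries being the deeper ones. Levels are given as CPM, counts scaled to a library's total after adjustment by the trimmed mean of M-values (TMM), and fold changes as GG minus AG on the log2 scale. Of 8 embryo and trophectoderm markers, 5 matched and were tested. The trophectoderm factor GATA3 was low and not called, at 1.42 and 1.07 CPM in AG and at 0.285 and 2.08 CPM in GG. POU5F1, NANOG and TFAP2C were detected in all 4 libraries, NANOG at 151 and 25.04 CPM in AG and at 129 and 141 CPM in GG, and TFAP2C at 104 and 110 CPM in AG and at 48.1 and 61.7 CPM in GG. KRT18, a keratin of the trophectoderm, was higher in GG, at 41.8 and 13.2 CPM in AG and at 165 and 352 CPM in GG (edgeR adjusted p = 0.0386, but 0.0927 and 0.193 without GG replicate 1 or 2, in alternatives of 7.86e-06 to 0.193). Of 10 cumulus and granulosa markers, 7 matched, with FSHR at 0 counts. The summed level was 0.559 to 3.56 CPM in AG and 2.18 to 10.95 CPM in GG, most of it in GG from TNFAIP6. TNFAIP6, the 1 marker tested, stood at 2.56 and 0.102 CPM in AG and at 1.61 and 10.5 CPM in GG, without a call. Of 11 sperm markers, 10 matched, with PRM2, TNP2 and ODF1 at 0 counts; the summed level was 76.3 to 112 CPM in AG and 57.1 to 74.5 CPM in GG, most of it from LDHC and ODF2. Of 10 blood markers, 8 matched, and their sum was 69.2 to 156 CPM in AG and 14.8 to 19.3 CPM in GG, most of it in AG from the leukocyte gene PTPRC. The part of other cells in the results was not tested, and in whole embryos fewer cells of a type and less RNA per cell cannot be told apart.

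Between AG and GG morulae the enzymes differed in both directions, also between the paralogs of lactate dehydrogenase. PFKP and PFKL of phosphofructokinase, LDHB and both pyruvate dehydrogenase subunit genes were higher in GG. BPGM, ENO2 and LDHA were higher in AG. GAPDH, PGK1 and PGAM1, which serve the steps between aldolase and enolase, had overlapping groups. The comparison asked how morulae with only a maternal genome differ from those with only a paternal one. A gene was called at a Benjamini-Hochberg adjusted p under 0.05 in edgeR's quasi-likelihood test over all 13227 tested genes, of which 12.9% were called. Among the 30 enzymes tested, 8 (26.7%) were called, 5 higher in GG and 3 higher in AG, where 6.34% and 6.58% of all tested genes were called in those directions. Without GG replicate 1 or GG replicate 2, PFKP and BPGM kept their call and the other called enzymes lost it. Calls over all genes fell as well in those fits, and without AG replicate 2 both counts rose. DESeq2, an alternative test, called 3333 of the 13227 tested genes. Shares of all tested genes given below are those of the edgeR calls, and none is given for unadjusted p. None of the 8 changed sign in any of the 12 alternative fits. The groups did not overlap in CPM for 20 of the 30 (66.7%), close to the 64.1% of all tested genes. The median log2 fold change of the 30 was 0.22, with a range of -6.11 to 5.0, against 0.04 over all tested genes. Sizes of change were also near those of other genes, with a median absolute log2 fold change of 0.86 against 0.80.

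**Figure D1:**
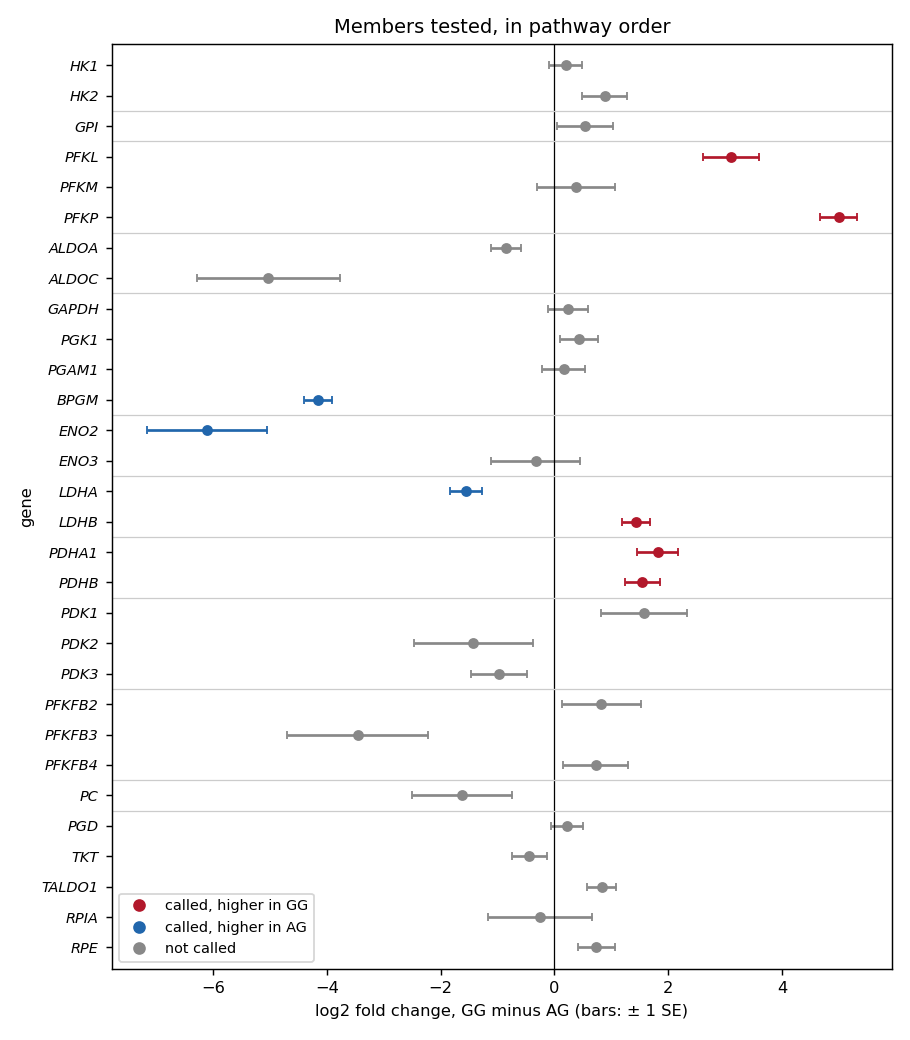
Each point is the log2 fold change, GG minus AG, of 1 of the 30 tested enzymes with a bar of 1 standard error (SE), in pathway order from hexokinase at the top to the pentose phosphate enzymes at the bottom. The 5 called higher in GG lie from 1.43 to 5.0 and the 3 called higher in AG from -6.11 to -1.55, while most of the others lie near 0 or carry wide bars.

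The replicates of a group differed about as much for these enzymes as for other genes. The median ratio of the higher to the lower replicate was 1.48 in AG and 1.37 in GG, against 1.5 and 1.28 over all tested genes. Replicate 2 was the higher of its pair for 20 of the 30 enzymes in AG and for 20 of the 30 in GG, against 53.1% and 50.004% of all tested genes. Estimated counts were not whole for 15 of the 32 matched enzymes. These included GAPDH, PGK1, PGAM1, ALDOA, LDHA and LDHB, and reads that were split among transcripts or near copies make such values uncertain.

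Hexokinase, which traps glucose in the cell as glucose 6-phosphate, was not called. HK1, the broadly expressed form, stood at 50.5 and 46.4 CPM in AG replicates 1 and 2 and at 60.6 and 50.3 CPM in GG. HK2, the form known from insulin-sensitive and fast-growing cells, stood at 65.2 and 123 CPM in AG and at 145 and 202 CPM in GG. Both GG libraries lay above both AG libraries for HK2, with AG replicate 1 the lowest, and the gene was not called (log2 fold change 0.88 ± 0.39 SE, adjusted p = 0.186). It passed without AG replicate 2 (adjusted p = 0.0258, alternatives 0.0258 to 0.661). GPI, the isomerase that makes fructose 6-phosphate, stood at 55.4 and 152 CPM in AG and at 168 and 132 CPM in GG. Its groups overlapped, and it passed only without AG replicate 2 (adjusted p = 0.0160, alternatives 0.0160 to 0.953).

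Phosphofructokinase, the main control point of glycolysis, was higher in GG for both PFKP and PFKL. PFKP (ENSMMUG00000004935), the platelet-type subunit, stood at 7.41 and 5.69 CPM in AG and at 206 and 211 CPM in GG. Its replicates lay close together in each group, and the means differed 31.9-fold (log2 fold change 5.0 ± 0.32 SE, adjusted p = 0.00488). PFKL (ENSMMUG00000004173), the liver-type subunit, stood at 3.28 and 7.26 CPM in AG and at 47.8 and 43.0 CPM in GG. The groups were well apart, with an 8.61-fold difference of the means (log2 fold change 3.10 ± 0.49 SE, adjusted p = 0.0237). PFKM, the muscle-type subunit, stood at 3.21 and 11.5 CPM in AG and at 8.22 and 11.0 CPM in GG, and the groups overlapped. PFKP kept its call without GG replicate 1 or 2 (adjusted p = 0.0341 and 0.0370). PFKL lost it (0.130 and 0.124, alternatives 2.47e-08 to 0.130).

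The PFKFB enzymes set the level of fructose 2,6-bisphosphate, an activator of phosphofructokinase, and none of the 3 was called (unadjusted edgeR p under 0.05 in 1 of 3, DESeq2 calls 0). PFKFB4 stood at 2.92 and 5.18 CPM in AG and at 5.27 and 8.15 CPM in GG. PFKFB2 stood at 0.784 and 0.914 CPM in AG and at 1.52 and 1.5 CPM in GG. Both were low, and for both the GG libraries were the higher ones by less than the test could separate. PFKFB3 had 23 counts in AG and 3 in GG, a ratio of 11.5 over the adjusted totals (95% exact counting interval 3.46 to 59.6), and was not called (adjusted p = 0.122). FBP1, which reverses the phosphofructokinase step in gluconeogenesis, had 0 counts in AG and 3 in GG, at the floor of 3 counts per group. Counting intervals and floors cover counting error only.

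Aldolase splits fructose 1,6-bisphosphate into triose phosphates, and both genes had higher values in AG without being called. ALDOA, the muscle and housekeeping form, stood at 1332 and 1967 CPM in AG and at 891 and 942 CPM in GG. The groups did not overlap (log2 fold change -0.85 ± 0.26 SE, adjusted p = 0.0861), and the gene passed with DESeq2 (0.0473), without a filter on low counts (0.0407) and without AG replicate 1 (0.0187), in alternatives of 0.0187 to 0.372. ALDOC, the brain form, had 93 and 88 counts in AG against 0 and 9 in GG. That is 6.63 and 4.47 CPM against 0 and 0.307 CPM (log2 fold change -5.03 ± 1.26 SE, adjusted p = 0.0544). ALDOC passed with DESeq2 (0.000185), without a filter (0.00972), after thinning to equal depth (0.0395) and without AG replicate 2 (0.0301), in alternatives of 0.000185 to 0.163.

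GAPDH, PGK1 and PGAM1 were not called, and their differences were within the spread of the replicates. GAPDH, which makes the first NADH of the pathway, stood at 1402 and 2677 CPM in AG and at 2110 and 2678 CPM in GG. Its log2 fold change of 0.23 ± 0.35 SE changed sign without AG replicate 1 (-0.17). PGK1, an X-linked gene whose enzyme makes the first ATP, stood at 444 and 476 CPM in AG and at 438 and 798 CPM in GG. PGAM1, the mutase that follows, stood at 221 and 440 CPM in AG and at 316 and 422 CPM in GG. In each of these 3 genes the groups overlapped, AG replicate 1 being the lowest library for GAPDH and PGAM1 and GG replicate 2 the highest for PGK1.

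BPGM departed from its neighbours. It encodes the mutase that makes 2,3-bisphosphoglycerate, a side product of glycolysis best known in red blood cells, where it loosens oxygen from haemoglobin. BPGM (ENSMMUG00000004598) stood at 660 and 603 CPM in AG and at 35.2 and 35.2 CPM in GG. The AG mean was 17.9 times the GG mean, with little spread in either group (log2 fold change -4.16 ± 0.25 SE, adjusted p = 0.00488). The call held without each library in turn (adjusted p = 0.000579 to 0.0430). Red cell markers were near 0: ALAS2 had 0 counts in AG, and HBA1 stood at 3.49 and 0.457 CPM in AG and at 0.475 and 1.33 CPM in GG.

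Enolase makes phosphoenolpyruvate, and of its 3 genes the broadly expressed ENO1 was not matched. ENO2 (ENSMMUG00000009443), the form known from neurons, stood at 22.4 and 56.6 CPM in AG and had 22 and 4 counts in GG, or 1.04 and 0.136 CPM. Both GG libraries were far below both AG libraries, although each pair was itself spread (log2 fold change -6.11 ± 1.05 SE, adjusted p = 0.0272). ENO2 lost its call without GG replicate 1 or 2 (0.0591 and 0.101, alternatives 9.45e-12 to 0.101). ENO3, the muscle form, was low throughout, at 1.35 and 3.45 CPM in AG and at 1.23 and 2.59 CPM in GG, with overlapping groups.

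The lactate dehydrogenase genes moved in opposite directions. The enzyme is a tetramer of A and B subunits that interconverts pyruvate and lactate, and the A form is the one known from lactate-producing tissue and the B form from tissue that oxidises lactate. LDHA (ENSMMUG00000031024) stood at 5841 and 4813 CPM in AG and at 2202 and 1434 CPM in GG. The AG mean was 2.93 times the GG mean (log2 fold change -1.55 ± 0.28 SE, adjusted p = 0.0294). LDHB (ENSMMUG00000002679) stood at 2433 and 2241 CPM in AG and at 7393 and 5213 CPM in GG. The GG mean was 2.70 times the AG mean (log2 fold change 1.43 ± 0.25 SE, adjusted p = 0.0273). Together the pair took 0.727% to 0.822% of the counts of an AG library and 0.656% to 0.947% of a GG library, ranges that overlap. Without GG replicate 1 or 2, LDHA lost its call (0.0763 and 0.141, alternatives 0.000275 to 0.141), and so did LDHB (0.138 and 0.0751, alternatives 0.000478 to 0.138). LDHC, the sperm form from another list, stood at 88.5 and 50.4 CPM in AG and at 34.3 and 49.2 CPM in GG, without a call.

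**Figure D2:**
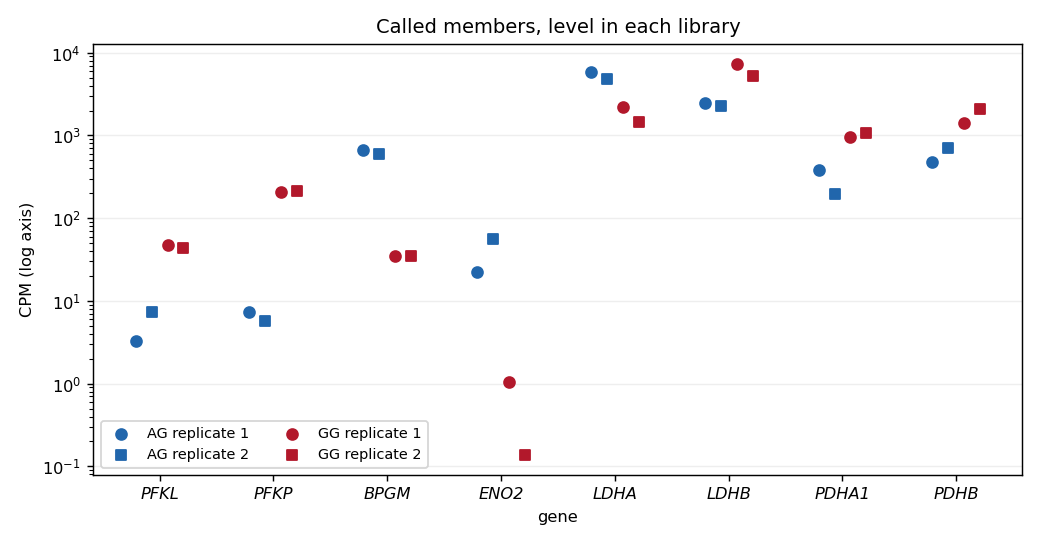
Level in CPM on a log axis of the 8 called enzymes in each library, with AG in blue and GG in red and circles and squares for replicates 1 and 2. The groups are apart in all 8 genes, by 66.9 times for ENO2, 31.9 times for PFKP and 2.70 times for LDHB. The ENO2 ratio rests on 22 and 4 counts in GG. The widest gaps between replicates are those of ENO2 (2.52 times in AG and 7.66 times in GG) and of PFKL in AG (2.22 times).

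The pyruvate dehydrogenase complex turns pyruvate into acetyl-CoA in the mitochondrion, and both subunit genes of its first enzyme were higher in GG. PDHA1 (ENSMMUG00000017336), the X-linked alpha subunit, stood at 380 and 198 CPM in AG and at 957 and 1072 CPM in GG. The means differed 3.51-fold (log2 fold change 1.81 ± 0.36 SE, adjusted p = 0.0344). PDHB (ENSMMUG00000015672), the beta subunit, stood at 482 and 711 CPM in AG and at 1407 and 2070 CPM in GG, a 2.91-fold difference (log2 fold change 1.54 ± 0.31 SE, adjusted p = 0.0363). Without GG replicate 1 or 2 the calls were lost for PDHA1 (0.147 and 0.194, alternatives 0.000494 to 0.194) and PDHB (0.111 and 0.219, alternatives 0.000741 to 0.219). Of the rest of the complex, 6 of 7 listed genes were tested, and DLD was called, where 12.9% of all tested genes were called. DLD, the dihydrolipoamide dehydrogenase shared with other complexes, stood at 450 and 442 CPM in AG and at 1321 and 1316 CPM in GG, a log2 fold change of 1.56 ± 0.20 SE (adjusted p = 0.0168). It lost its call without GG replicate 1 or 2 (0.12 and 0.129, alternatives 5.05e-06 to 0.129). The acetyltransferase gene DLAT and its partner PDHX, chosen after their values were seen, had log2 fold changes of 0.74 ± 0.43 and 0.73 ± 0.27 SE and were not called.

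Pyruvate dehydrogenase kinases switch the complex off, and none was called (unadjusted edgeR p under 0.05 in 0 of 3 tested, DESeq2 calls 0). PDK1, a kinase known to be induced by hypoxia, stood at 1.21 and 4.67 CPM in AG and at 10.6 and 7.06 CPM in GG. It passed without AG replicate 2 (adjusted p = 0.0247, alternatives 0.0247 to 0.577). PDK3, an X-linked kinase gene, stood at 45.8 and 22.2 CPM in AG and at 12.7 and 21.9 CPM in GG. For PDK3 the AG libraries were the higher ones, and AG replicate 2 and GG replicate 2 almost met. PDK2 stood at 0.641 and 3.86 CPM in AG and at 0.475 and 1.19 CPM in GG, with overlapping groups. PDK4, the form known from fasting tissue, had counts in 1 library, 19 in GG replicate 2, and over the group it was at least 4.24-fold higher in GG against the floor of 3 counts. Pyruvate carboxylase (PC), which makes oxaloacetate from pyruvate, stood at 4.49 and 3.35 CPM in AG and at 0.427 and 2.08 CPM in GG. Its groups did not overlap, but it was not called (log2 fold change -1.63 ± 0.88 SE, adjusted p = 0.262).

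The tricarboxylic acid cycle, which burns the acetyl-CoA, had 21 tested genes on its list. The list also holds enzymes outside the mitochondrial cycle, such as ACO1 and the malic enzymes ME1 and ME2. Of the 21, 5 were called higher in GG and 0 higher in AG (unadjusted edgeR p under 0.05 in 10 and 0, DESeq2 calls 8 and 0). Among all tested genes, edgeR called 6.34% and 6.58% in those directions. DESeq2 called 3333 of 13227 in either direction, and for unadjusted p no share over all genes is given here. The list's median on the log2 scale was 0.79 against 0.04 over all tested genes. SUCLG2, a succinyl-CoA ligase subunit, stood at 4.27 and 6.09 CPM in AG and at 49.9 and 51.1 CPM in GG. IDH2, the NADP-dependent mitochondrial isocitrate dehydrogenase, stood at 6.48 and 7.82 CPM in AG and at 44.5 and 64.0 CPM in GG. ME2, a malic enzyme, and SDHA, a succinate dehydrogenase subunit, rose by 2.18 ± 0.36 and 1.98 ± 0.35 SE on the log2 scale. ACO1, a cytosolic aconitase and the fifth gene called, was named after its values were seen. CS, the gene of the entry enzyme and likewise picked late, stood at 247 and 230 CPM in AG and at 253 and 227 CPM in GG. Without GG replicate 1 or 2 all 5 lost their call (adjusted p = 0.0839 to 0.197).

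**Figure D3:**
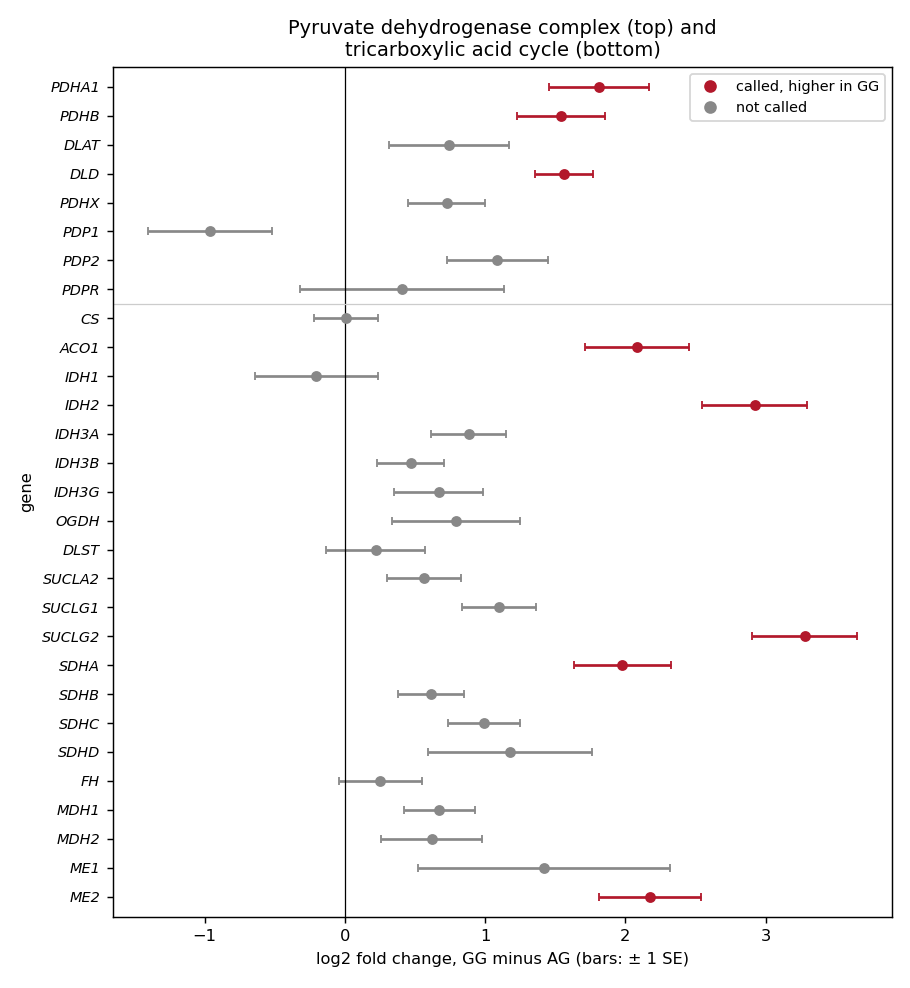
Log2 fold changes, GG minus AG, with bars of 1 SE. At the top are the 8 tested genes of the pyruvate dehydrogenase complex and its regulators. At the bottom are the 21 of the tricarboxylic acid cycle list, which also holds enzymes outside the cycle. PDHA1, PDHB and DLD lie between 1.54 and 1.81, most genes of the cycle list lie right of 0, and CS lies near 0.

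The pentose phosphate pathway makes NADPH and ribose for nucleotides, and none of its 5 listed enzymes was called (unadjusted edgeR p under 0.05 in 1 of 5, DESeq2 calls 0). TALDO1, the transaldolase, stood at 281 and 385 CPM in AG and at 546 and 639 CPM in GG. Both GG libraries were higher, short of a call (log2 fold change 0.83 ± 0.26 SE, adjusted p = 0.0896), and the gene passed without AG replicate 2 (0.0216, alternatives 0.0216 to 0.473). RPE, the ribulose phosphate epimerase, stood at 64.1 and 45.2 CPM in AG and at 102 and 79.7 CPM in GG. TKT, the transketolase that works with TALDO1, had the higher values in AG, at 71.4 and 88.9 CPM in AG and at 50.5 and 67.4 CPM in GG. PGD, an NADPH-making dehydrogenase, stood at 142 and 146 CPM in AG and at 136 and 198 CPM in GG, and RPIA, the ribose phosphate isomerase, was between 1.07 and 4.01 CPM in all libraries. Both of these had overlapping groups. On the list of other genes of the pathway, 6 of 8 were tested, 1 was called higher in GG and 0 higher in AG (unadjusted edgeR p under 0.05 in 3 and 1, DESeq2 calls 2 and 1). Among all tested genes, edgeR called 6.34% and 6.58% in those directions, and DESeq2 called 3333 of 13227 in either direction. The called gene was PGM2, which interconverts pentose phosphates, at 1.71 and 12.2 CPM in AG and at 90.0 and 143 CPM in GG. It lost its call without GG replicate 1 or 2 (0.139 and 0.186, alternatives 1.39e-06 to 0.186). TKTL1, a transketolase-like gene chosen after its values were seen, stood at 656 CPM in AG replicate 1 but at 6.55 CPM in AG replicate 2, and at 0.285 and 3.72 CPM in GG.

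Within families of paralogs, composition differed between the groups in some cases and not in others. The measure was the share of a gene in the summed counts of its family in each library, which does not depend on scaling between libraries. Transcript lengths of the annotation were not used here, so a share compares libraries and does not rank the paralogs. With 2 libraries against 2, the smallest two-sided p an exact permutation test can give is 0.333, so no share could pass a threshold, and a group difference is read against the spread.

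The lactate dehydrogenase pair differed in composition by far more than the replicates did. LDHB made up 29.4% and 31.8% of LDHA plus LDHB counts in AG and 77.1% and 78.4% in GG, a difference of 47.2 percentage points where replicates of a group differed by an SD of 1.67 or less (exact permutation p = 0.333). In the phosphofructokinase family, PFKP made up 53.3% and 23.2% of the counts in AG and 78.7% and 79.6% in GG. The difference of 40.8 percentage points came to 25.8 without AG replicate 2. PFKM took 23.1% and 47.1% in AG and 3.13% and 4.17% in GG, although its CPM overlapped between groups. PFKL took 23.6% and 29.7% in AG against 18.2% and 16.2% in GG, so its share was lower in GG while its level was higher. The AG shares rest on 195 and 482 family counts and the GG shares on 5523 and 7773.

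ENO2 made up 94.3% and 94.3% of ENO2 plus ENO3 counts in AG and 45.8% and 5.0% in GG. The GG shares rest on 48 and 80 counts, with exact (Clopper-Pearson) 95% intervals of 31.4% to 60.8% and 1.38% to 12.3%. ENO1 is not in this sum. PDK1 made up 2.54% and 15.2% of kinase counts in AG and 44.7% and 22.9% in GG, and PDK3 took 96.1% and 72.3% in AG against 53.3% and 71.1% in GG. The PDK1 difference of 24.9 percentage points came to 14.04 without GG replicate 1. The PDK3 difference was -22.0 percentage points, GG minus AG, with replicate SDs of 16.9 in AG and 12.6 in GG, and AG replicate 2 and GG replicate 2 were nearly equal. HK2 made up 56.3% and 72.7% of hexokinase counts in AG and 70.5% and 80.1% in GG, and these groups overlapped (exact permutation p = 0.667). ALDOA held at least 99.5% of aldolase counts in every library, and the ALDOC share was 0.495% and 0.227% in AG and 0 and 0.0326% in GG. In the PFKFB family, PFKFB4 made up 67.2% and 76.1% in AG and 77.6% and 83.6% in GG, next to each other at 76.1% and 77.6%.

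**Figure D4:**
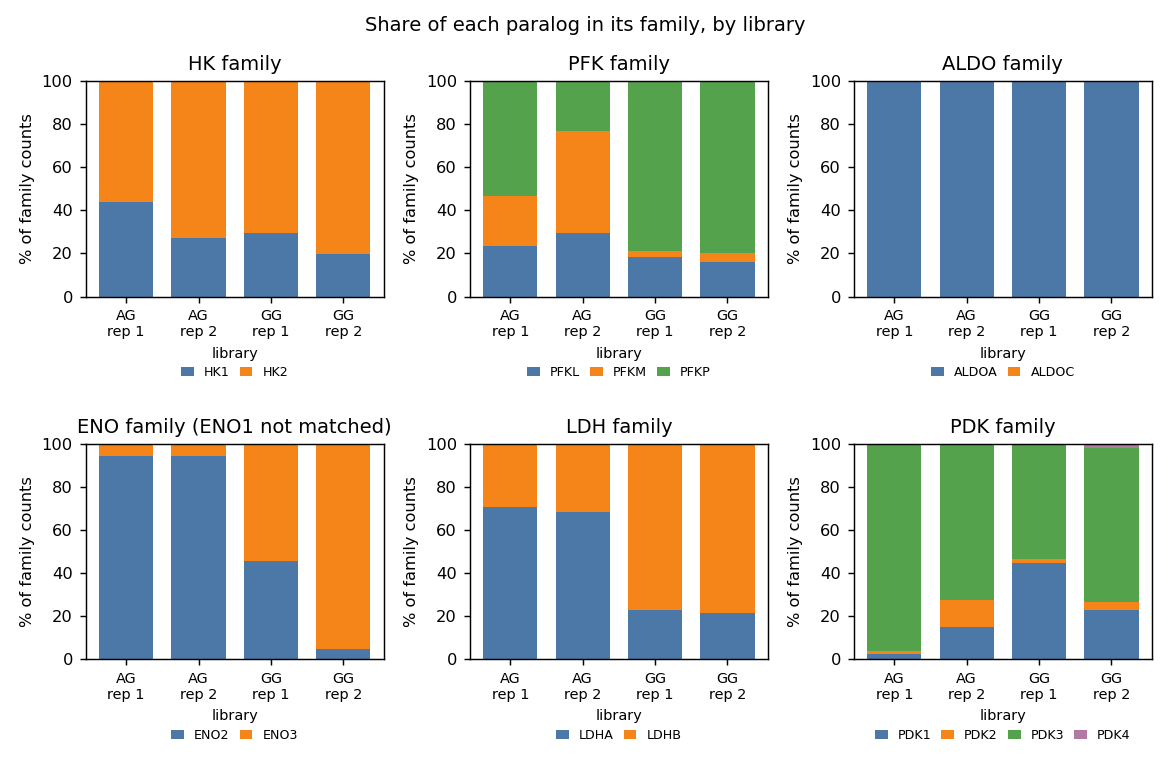
Share of each paralog, in percent of the summed counts of its family, in each of the 4 libraries for 6 families. LDHB takes 29.4% and 31.8% of the pair in AG and 77.1% and 78.4% in GG, the ENO2 share is lower in GG than in AG, PFKP fills 78.7% and 79.6% in GG, and HK and PDK shares overlap or vary between replicates.

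Transport of glucose, lactate and pyruvate followed no single direction. Of 15 genes listed, 10 were tested, 1 was called higher in AG and 0 higher in GG. Over all tested genes, 6.58% and 6.34% were called in those directions. In the same order, unadjusted edgeR p was under 0.05 in 4 and 2 of the list, and DESeq2 calls were 3 and 1. The edgeR shares are no measure for these counts, as DESeq2 called 3333 of all 13227 tested genes. SLC16A1, a carrier of lactate and pyruvate, stood at 480 and 347 CPM in AG and at 203 and 161 CPM in GG. Its call (adjusted p = 0.0482) was lost with DESeq2 size factors (0.0501), with upper-quartile scaling (0.0538) and without GG replicate 1 or 2 (0.234 and 0.338), in alternatives of 0.00644 to 0.338. SLC2A3, a glucose transporter of high affinity chosen after its values were seen, stood at 1156 and 1646 CPM in AG and at 796 and 844 CPM in GG (adjusted p = 0.0979). SLC2A14, its close paralog, had the same order of groups, and reads of the pair may be divided between them.

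Other glycolysis and gluconeogenesis enzymes were mostly low. Of 20 listed, 7 were tested, 1 was called higher in AG and 1 higher in GG. Over all tested genes, 6.58% and 6.34% were called in those directions. HKDC1, a further hexokinase, stood at 3.13 and 1.52 CPM in AG and at 0.0950 and 0.205 CPM in GG. LDHD, the D-lactate dehydrogenase, had 1 count in AG and 155 in GG, a ratio of 104 (95% exact counting interval 18.3 to 4124). Both lost their call without GG replicate 1 or 2 (adjusted p = 0.149 to 0.300), and HKDC1 also without AG replicate 1 (0.150) and with the replicate number as a block (0.0783), in alternatives of 0.00948 to 0.300.

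Of 15 tested genes in branches that leave glycolysis toward glycogen, hexosamine, sorbitol and glycerol, 2 were called higher in GG and 2 higher in AG, where 6.34% and 6.58% of all tested genes were called. PGM1, the phosphoglucomutase that links glucose 6-phosphate to glycogen, stood at 1.35 and 1.07 CPM in AG and at 63.4 and 118 CPM in GG, a log2 fold change of 6.23 ± 0.51 SE (adjusted p = 0.00645). SORD, the sorbitol dehydrogenase, stood at 58.3 and 67.0 CPM in AG and at 0.665 and 0.818 CPM in GG, a log2 fold change of -6.38 ± 0.41 SE (adjusted p = 0.00488). Both kept their call without each library in turn. GFPT2, an entry enzyme of hexosamine synthesis, stood at 175 and 83.8 CPM in AG and at 6.55 and 7.23 CPM in GG. GPD2, the mitochondrial glycerol 3-phosphate dehydrogenase that carries electrons of cytosolic NADH inward, stood at 1.28 and 12.7 CPM in AG and at 171 and 199 CPM in GG. GFPT2 and GPD2 lost their call without GG replicate 1 (0.0862 and 0.139) or 2 (0.0956 and 0.151), in alternatives of 1.92e-16 to 0.0956 and of 6.97e-08 to 0.151.

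Among regulators of these genes, 13 of 18 were tested, 3 were called higher in AG and 1 higher in GG. Over all tested genes, 6.58% and 6.34% were called in those directions. MYC, a transcription factor known to raise glycolysis and LDHA, stood at 49.2 and 50.6 CPM in AG and at 12.7 and 6.51 CPM in GG. MLX, the partner of the glucose-sensing factors MLXIP and MLXIPL, stood at 70.7 and 66.2 CPM in AG and at 20.2 and 19.6 CPM in GG. PRKAA1, a catalytic subunit of the energy sensor AMPK, had a log2 fold change of -1.53 ± 0.29 SE and was higher in AG. TXNIP, which restrains glucose uptake, stood at 10.1 and 6.86 CPM in AG and at 112 and 103 CPM in GG. HIF1A, the hypoxia-inducible factor, chosen after its values were seen, stood at 39.0 and 67.9 CPM in AG and at 63.8 and 83.1 CPM in GG, with overlapping groups. Without GG replicate 1 or 2 all 4 lost their call (adjusted p = 0.0643 to 0.266).

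Genes known to respond to hypoxia outside glycolysis were mixed, with 2 of 8 tested called higher in GG and 0 higher in AG (unadjusted edgeR p under 0.05 in 3 and 2, DESeq2 calls 3 and 1). Among all tested genes, edgeR called 6.34% and 6.58% in those directions, and DESeq2 called 3333 of 13227 in either direction. BNIP3, a mitophagy receptor, stood at 483 and 434 CPM in AG and at 1420 and 1415 CPM in GG. NDRG1, a stress-response gene, stood at 1.14 and 1.22 CPM in AG and at 40.8 and 17.9 CPM in GG. BNIP3 lost its call without GG replicate 1 or 2 (0.112 and 0.122, alternatives 3.90e-06 to 0.122), and NDRG1 without GG replicate 1 (0.0878, alternatives 2.31e-12 to 0.0878). VEGFA, the vascular growth factor, and P4HA1, a collagen hydroxylase, both chosen after their values were seen, had negative log2 fold changes of -2.22 ± 0.90 and -0.97 ± 0.28 SE and were not called.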

How the data were processed

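RNA of 2 AG and 2 GG macaque morula libraries was measured after SMARTer cDNA amplification, per the labels' protocols. The authors deposited estimated counts per Ensembl gene, unscaled, of which 30.0% to 32.2% per library were not whole. Trim Galore, STAR 2.6.0c, Salmon 0.12.0 and rheMac8 are named, without role, per the submitters' processing notes. For the annotation release, the strand setting and filters, the sources used here give nothing.

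Symbols matched 14654 of 21314 identifiers (68.8%). Counts were rounded and tested in R 4.3.3 with edgeR 4.0.16 (filterByExpr, minimum count 10 and total 15, TMM, glmQLFit, group alone, 2 residual degrees of freedom), tested on simulated data first. Each SE was derived from the F statistic. Alternatives used DESeq2 1.42.0, other scalings and filters, thinning, a replicate block, summed identifiers, and each library left out. Members and lists were chosen with earlier results of these data known. The text names every called member, every member of the paralog families, and up to 4 called genes with the smallest p per other list. Others are said to be chosen after their values were seen. A few genes of the pathway lists are not reported here, and they were taken out of the list counts and medians after values had been seen.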

Additional observations from a re-analysis of the deposited data

How the results depend on the processing

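All 8 called enzymes kept their direction in the 12 alternatives and their call in the 8 that kept all libraries plus the 2 that left out an AG library. Without GG replicate 1 or 2, with residual spread estimated on AG libraries only, PFKP and BPGM remained called. Over all genes 1709 of 13227 tested were called, 3333 of 13227 with DESeq2 and 2609 of 18261 without a filter on low counts. With DESeq2 30 enzymes were tested, and 32 without that filter. In each of these fits 5 enzymes in place of 3 were called higher in AG, ALDOA and ALDOC being added. Leaving out 1 library gave 84 to 3786 genes, 2 to 13 enzymes, 1 to 9 higher in GG and 1 to 4 higher in AG. Among uncalled enzymes the sign of the log2 fold change turned when 1 library was left out, over ranges of -0.026 to 1.41 for GPI, -0.27 to 1.57 for PFKM, -0.17 to 0.76 for GAPDH and -0.26 to 0.72 for PGAM1 (without AG replicate 1, PGAM1 also without GG replicate 2). The ranges were -0.98 to 0.49 for ENO3 (AG replicate 2 or GG replicate 1), -2.25 to 0.38 for PDK2 (AG replicate 2), -0.10 to 0.80 for PGK1 and -0.11 to 0.46 for PGD (GG replicate 2), and -1.18 to 0.97 for RPIA (AG replicate 2 or GG replicate 2). The cause was not tested.

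Replicate numbers are not said to pair the samples, and with 2 pairs the correlation of replicate differences across genes was 0.108. With the replicate block 8 enzymes were called, the same 8, and 1697 genes over all. The shares of HK2, PFKP, ALDOA, ENO2, LDHB and PDK1 kept their direction in the 6 alternatives run for them, and the HK2 difference of 10.8 percentage points came to 2.62 without AG replicate 1. The difference in LDHB share was 46.0 to 48.3 percentage points without 1 library and 46.6 with both LDHB identifiers summed. Low counts limit PDK4, FBP1, PFKFB3 and ENO2 in GG.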
